A study of Mus musculus with 15 samples.

Results

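The comparison described here set the livers of mice that drank fructose with potassium sorbate against the livers of mice that drank fructose alone. It rested on 6 of the 15 Clariom S mouse arrays of the study, 3 per group, chosen by their group label, and covered all 22206 probe sets that are not controls. All mice were C57BL/6, carried human gut microbiota and entered the experiment at 3 weeks of age. Both groups drank 10% fructose for 11 weeks, and the sorbate group also received potassium sorbate at 19 mg/kg per day, set after the estimated maximum human intake. The other 9 arrays (3 each of water, fructose with sodium benzoate and fructose with sodium nitrite) entered the fit and are shown beside the 6. Each array is a separate liver sample, the study placed 8 mice of evenly divided sexes in each group, and no label says which sex an array stands for. The labels give an age of 11 weeks, whereas the methods end the treatment at 14 weeks of age.

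Potassium sorbate is a food preservative that inhibits moulds and yeasts, and sorbic acid is broken down in the body much like a fatty acid. The liver holds hepatocytes, which make bile acids, lipoproteins and drug-metabolizing enzymes, beside Kupffer cells, the resident macrophages, and the sinusoidal endothelium, which filters portal blood coming from the gut. In mice, pulsatile growth hormone in males and more continuous growth hormone in females give many liver genes a strong sex bias, among them the Cyp2b, Cyp4a12, Sult and Mup genes.

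In all, 141 probe sets (0.635% of those tested) passed an FDR under 0.05 with a fold change over 2. Of these, 91 (0.41%) were higher and 50 (0.225%) lower on the sorbate arrays, and the same count was reached with any fold. At an unadjusted p under 0.05 and a fold over 2 there were 666 probe sets (3%), of which 442 were higher (1.99%) and 224 lower (1.01%). The median log2 difference of all probe sets, sorbate minus fructose, was -0.03. Arrays of one of these groups correlated at 0.985 to 0.989 with each other and at 0.969 to 0.979 across the groups, and the medians of the negative control probes, 6.39 ± 0.17 with sorbate and 6.44 ± 0.10 with fructose (SD, n = 3), differed by less than the spread between arrays (two-sided exact permutation test, p = 0.8). The count rested on all 6 arrays: it was 7 without sorbate array 1, 21 without fructose array 3, 24 without fructose array 1, 38 without sorbate array 2, and 73 without fructose array 2 or sorbate array 3. The standard errors of these fits pool the spread within every group, so they also hold differences within the water, benzoate and nitrite groups.

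The Y-linked genes, which males alone carry, separated the arrays completely. Eif2s3y, a translation initiation factor subunit encoded on the Y chromosome, had log2 signals of 10.56, 11.14 and 11.06 on the fructose arrays and of 2.94, 3.13 and 2.39 on the sorbate arrays. Uty, a Y-linked histone demethylase relative, read 10.70, 10.51 and 10.48 with fructose and 4.37, 5.25 and 4.42 with sorbate. Kdm5d, a Y-linked histone demethylase, read 7.82, 8.36 and 7.64 with fructose and 4.47, 4.14 and 3.37 with sorbate. All 3 genes thus lay under the negative control median on each sorbate array and above it on each fructose array. Their mean was 3.83 ± 0.40 with sorbate and 9.81 ± 0.17 with fructose (exact permutation p = 0.1, the smallest that 3 arrays against 3 allow, and 0.4 after adjustment over 4 array measures).

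Beyond these 6 arrays, the Y-linked mean lay between 9.37 and 9.98 on the nitrite and water arrays. It was 10.00 on benzoate array 1 and 3.57 and 3.51 on benzoate arrays 2 and 3. The X-linked partners of the Y-linked genes were not past the FDR in any case: Kdm5c differed by 1.32 ± 0.42 (SE), Eif2s3x by 0.91 ± 0.26, Kdm6a by 0.79 ± 0.33 and Ddx3x by 0.56 ± 0.38 on the log2 scale. Within the 6 arrays, sorbate and the sex that Y-linked signal marks cannot be told apart, and most results below are therefore given with their values on the benzoate arrays or with their difference in a fit that holds the Y-linked mean as a covariate. That covariate is estimated in the main from benzoate array 1 against benzoate arrays 2 and 3, that is from 1 array.

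**Figure D1:**
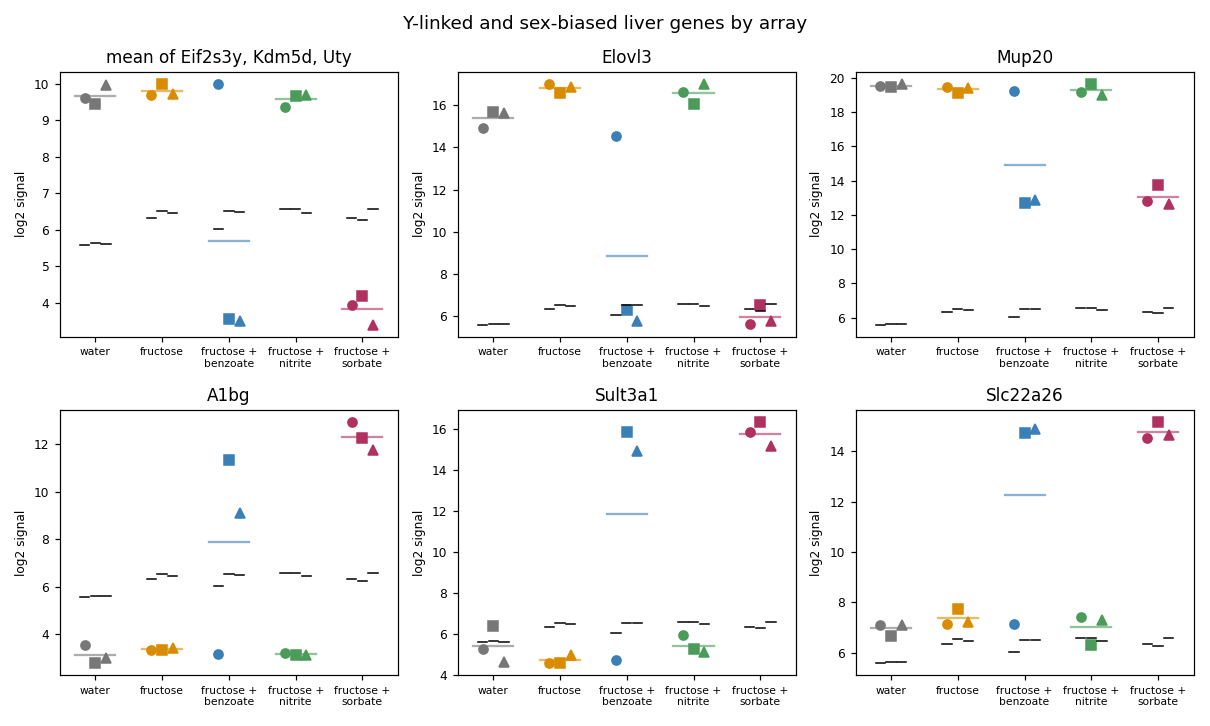
Log2 signal on each of the 15 arrays of the mean of 3 Y-linked genes and of 5 genes known as sex-biased in mouse liver (circle, square and triangle: arrays 1, 2 and 3; coloured line: group mean; short black line: negative control median of the array). The 3 sorbate arrays lie with benzoate arrays 2 and 3, apart from the fructose arrays and from benzoate array 1.

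The largest differences were those of sex-biased liver genes. Of 32 measured genes known to be female-biased, 17 were higher on the sorbate arrays at the FDR and none was lower, with a median log2 difference of 4.05. Of 26 male-biased genes, 11 were lower and none higher, with a median of -2.11. With the Y-linked covariate these medians were 0.50 and -0.000439. With signals under the negative controls set at that background, the medians of the fit without the covariate were 3.38 and -2.14. These counts stand beside shares of 0.41% higher and 0.225% lower over all probe sets.

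Elovl3, an elongase of very long chain fatty acids that is male-biased in mouse liver, showed one of the largest falls. Its log2 signal was 16.99, 16.60 and 16.86 with fructose and 5.61, 6.53 and 5.77 with sorbate, where 2 of the 3 arrays lay under the negative control median. With these arrays set at that median, as for every fold given here as a bound, the signal was at least 1288-fold lower (adjusted p = 0.00227). Benzoate arrays 1 to 3 read 14.53, 6.27 and 5.77. The array with Y-linked signal thus lay below every fructose array, though far above the other two, which lay at the sorbate level. The water arrays, 14.92, 15.70 and 15.62, also lay below every fructose array. With the Y-linked covariate the difference was -3.10 (unadjusted p = 3.6e-05, not past the FDR at 0.161). That value rests in the main on benzoate array 1, and a difference due to sorbate apart from sex was not tested. Mup20, the urinary pheromone protein darcin, read 19.48, 19.11 and 19.42 with fructose and 12.78, 13.73 and 12.63 with sorbate, 78.4-fold lower (adjusted p = 0.00947), and 19.21, 12.69 and 12.86 on the benzoate arrays. The call on Mup20 was lost without fructose array 1 or 3 or sorbate array 1 (adjusted p up to 0.0638). Its standard error of 1.05 stands beside SDs of 0.20 with fructose and 0.59 with sorbate. That error also holds the spread between the benzoate arrays. A lost call therefore does not by itself show that the 6 arrays disagree.

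A1bg, a secreted plasma glycoprotein that is female-biased in mouse liver, lay between 3.33 and 3.43 on the fructose arrays, under the negative controls, and read 12.92, 12.27 and 11.73 with sorbate, at least 58.6-fold higher (adjusted p = 0.00327). Sult3a1, a female-biased sulfotransferase, was at least 647-fold higher (adjusted p = 0.008, and 0.0544 without sorbate array 1). On the benzoate arrays A1bg read 3.15, 11.34 and 9.11 and Sult3a1 read 4.72, 15.85 and 14.90. The sorbate values of A1bg lay above all 3 benzoate values.

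The other large rises named by the same rule were those of P450 enzymes and sulfotransferases and of Slc22a26, an organic anion carrier. Cyp3a41a was 241-fold, Slc22a26 170-fold and Cyp2c40 109-fold higher. The remaining 5 had fructose arrays under the negative controls, and only bounds can be given: at least 3305-fold for Cyp2b9, 447-fold for Cyp2b13, 143-fold for Cyp2b10, 117-fold for Sult3a2 and 14-fold for Sult2a2. Of the other large falls, Cyp4a12a and Cyp4a12b lay under the negative controls on all 3 sorbate arrays and were at least 706-fold and 345-fold lower. C6 was 31.8-fold, Gstp1 27-fold, Cyp2d9 24-fold and Gstp2 18.8-fold lower. Each of these genes had benzoate array 1 on the fructose side and benzoate arrays 2 and 3 on the sorbate side. Cyp17a1, a steroid hydroxylase (log2 difference 4.93), and Mup6, a urinary protein (-3.46), had the same pattern, while Hsd17b6 (3.70), a hydroxysteroid dehydrogenase, read 12.62 on benzoate array 1, between the fructose and sorbate arrays. With 1 array left out, Mup6 passed the FDR in all 6 fits, Cyp2c40 in none and the others in 1 to 5 of them.

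Over all calls, benzoate array 1 lay below both other benzoate arrays for 75 of the 91 probe sets that were higher with sorbate (82.4%, against 38.2% of all probe sets). It lay above both for 43 of the 50 that were lower (86%, against 37.1%). These positions used no fructose or sorbate array. With the Y-linked mean as a covariate, 134 of the 141 kept their direction, 54 had an unadjusted p under 0.05 in that direction and 0 passed the FDR in limma. The 141 include the Y-linked genes that form the covariate, whose differences in that fit must cancel out on average. Over all probe sets that fit had 3.38% higher and 3.74% lower at an unadjusted p under 0.05, 5.65% at that p with a fold over 2, and 1 probe set past the FDR (0.0045%). The median standard error of the 141 rose from 0.35 to 0.50 in that fit, so that a call missed there does not show that a gene was equal in the 2 groups.

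**Figure D2:**
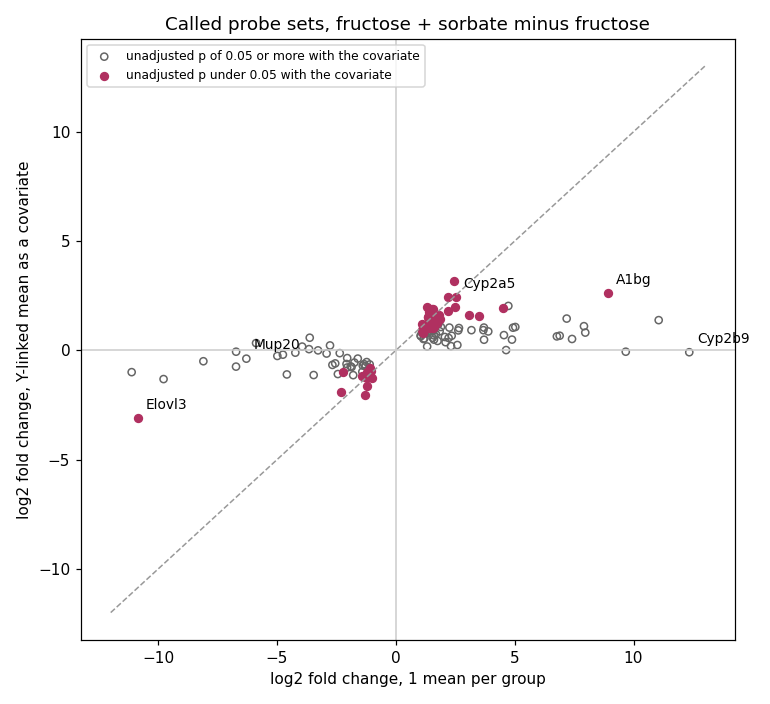
Log2 difference, in signals as read and without bounds, of the 141 called probe sets, sorbate minus fructose, with 1 mean per group (horizontal axis) and with the Y-linked mean as a covariate (vertical axis; dashed line: equal values; filled points: 54 probe sets at an unadjusted p under 0.05 in the same direction). Most points with the largest differences lie near 0 on the vertical axis, with Elovl3 (-3.10) and A1bg (2.61) further out, and Cyp2a5 stays near the dashed line.

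Cyp2a5, a coumarin hydroxylase that is also induced by liver injury and xenobiotics, was the gene with the smallest p. Its log2 signal was 13.68, 12.99 and 13.08 with fructose and 15.85, 15.85 and 15.63 with sorbate, a 5.76-fold difference (log2 difference 2.53 ± 0.23 SE, adjusted p = 5.71e-05). All 3 benzoate arrays lay at the sorbate level, 15.67, 15.66 and 15.88, the array with Y-linked signal included, and the nitrite and water arrays lay between 13.9 and 14.6. The benzoate arrays also enter the standard error, so their likeness lowers this p and is not independent of it. The difference was 2.42 with the Y-linked covariate (unadjusted p = 1.3e-05), and the call held without any 1 of the 6 arrays (adjusted p up to 0.00132). Its neighbour in sequence Cyp2a4, a female-biased steroid hydroxylase, read 11.81, 10.95 and 11.15 with fructose, 15.73, 15.78 and 15.98 with sorbate and 13.29, 16.23 and 15.90 with benzoate. Cyp2a4, with unlike benzoate arrays, had a larger difference and a larger standard error (4.53 ± 0.51 SE). The near-identical sequences of Cyp2a4 and Cyp2a5 mean that their probe sets may share signal.

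Several Kupffer cell and macrophage genes were higher on the sorbate arrays by small differences. Of 22 measured markers, 3 passed the FDR, all higher, and 13 were higher at an unadjusted p under 0.05 with none lower, where 7.34% of all probe sets were higher and 6.03% lower at that p. The median of the list was 0.73 on the log2 scale, and 15 of the 22 had sorbate arrays that did not overlap the fructose arrays from above (12.3% of all probe sets). In whole liver, more cells of a type and more RNA per cell cannot be told apart. Counts at an unadjusted p under 0.05 in the lists below, without the covariate, stand beside the same 7.34% higher and 6.03% lower.

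Cd5l, the apoptosis inhibitor of macrophages that Kupffer cells secrete, read 9.98, 9.09 and 9.78 with fructose and 11.33, 11.50 and 11.23 with sorbate, 3.33-fold higher (adjusted p = 0.0124). Clec4f, a lectin receptor specific to mouse Kupffer cells, read 9.35, 8.88 and 9.07 with fructose and 10.54, 10.22 and 10.03 with sorbate, 2.23-fold higher (adjusted p = 0.0206). Csf1r, the receptor through which macrophages take their survival signal, read 9.80, 9.99 and 9.93 with fructose and 11.30, 10.94 and 11.06 with sorbate, 2.29-fold higher (adjusted p = 0.0359). In each of the 3 genes every sorbate array lay above every fructose array.

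These calls were close to the threshold. Csf1r passed in none of the 6 fits that left out 1 array (adjusted p from 0.0909 to 0.186), Clec4f passed only without sorbate array 3 (up to 0.116), and Cd5l passed only without fructose array 1 or sorbate array 3 (up to 0.0728). Lyz2, a lysozyme of macrophages and granulocytes, had a difference of 1.38 ± 0.38 SE that missed the FDR (adjusted p = 0.109). The pan-macrophage marker Adgre1 differed by 0.44, not at an unadjusted p under 0.05.

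On benzoate array 1, which has the Y-linked signal of the fructose arrays, Cd5l read 10.97, Clec4f 9.85 and Csf1r 10.42. Each value lay above all 3 fructose arrays. With the Y-linked covariate the differences were 1.24 for Cd5l (unadjusted p = 0.028), 0.85 for Clec4f (unadjusted p = 0.039) and 0.54 for Csf1r (unadjusted p = 0.19), and the median of the list was 0.52. The mean log2 signal of the list was 8.59 to 8.81 on the fructose arrays, 9.28 to 9.45 on the sorbate arrays, 9.16 to 9.47 on the benzoate arrays, 8.48 to 9.18 on the nitrite arrays and 9.07 to 9.47 on the water arrays. In this list mean the fructose arrays thus lay below the water arrays, and the sorbate arrays within the range of the water arrays. The 3 called genes differed in this: the water arrays read 11.04, 10.50 and 11.00 for Cd5l and 10.48, 10.55 and 10.74 for Clec4f. For Csf1r they read 9.26, 9.76 and 9.89, not above the fructose range.

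Spi1 is outside the lists and was named after its values were seen. It encodes PU.1, the transcription factor of the myeloid lineage, and read 9.17, 9.27 and 9.02 with fructose and 10.76, 10.71 and 10.48 with sorbate, 2.82-fold higher (adjusted p = 0.00947, lost without fructose array 1 or 3 or sorbate array 1 or 2, up to 0.0638). It read 9.95, 10.34 and 10.55 with benzoate, and its difference with the Y-linked covariate was 1.12 (unadjusted p = 0.017). Gas6, which the study names, is the secreted ligand of the receptors Axl and Mertk by which phagocytes take up dying cells. It read 7.80, 8.43 and 8.17 with fructose and 11.19, 11.66 and 10.74 with sorbate, 8.36-fold higher (adjusted p = 0.00356). The call on Gas6 held without any 1 of the 6 arrays. On the benzoate arrays Gas6 read 8.27, 10.43 and 9.64, all below the sorbate arrays. Benzoate array 1, with Y-linked signal, lay within the fructose range, and benzoate arrays 2 and 3 lay above it. The difference of Gas6 with the covariate was 1.62 (unadjusted p = 0.012). Its receptor Mertk differed by 0.98 ± 0.32 SE (adjusted p = 0.173).

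**Figure D3:**
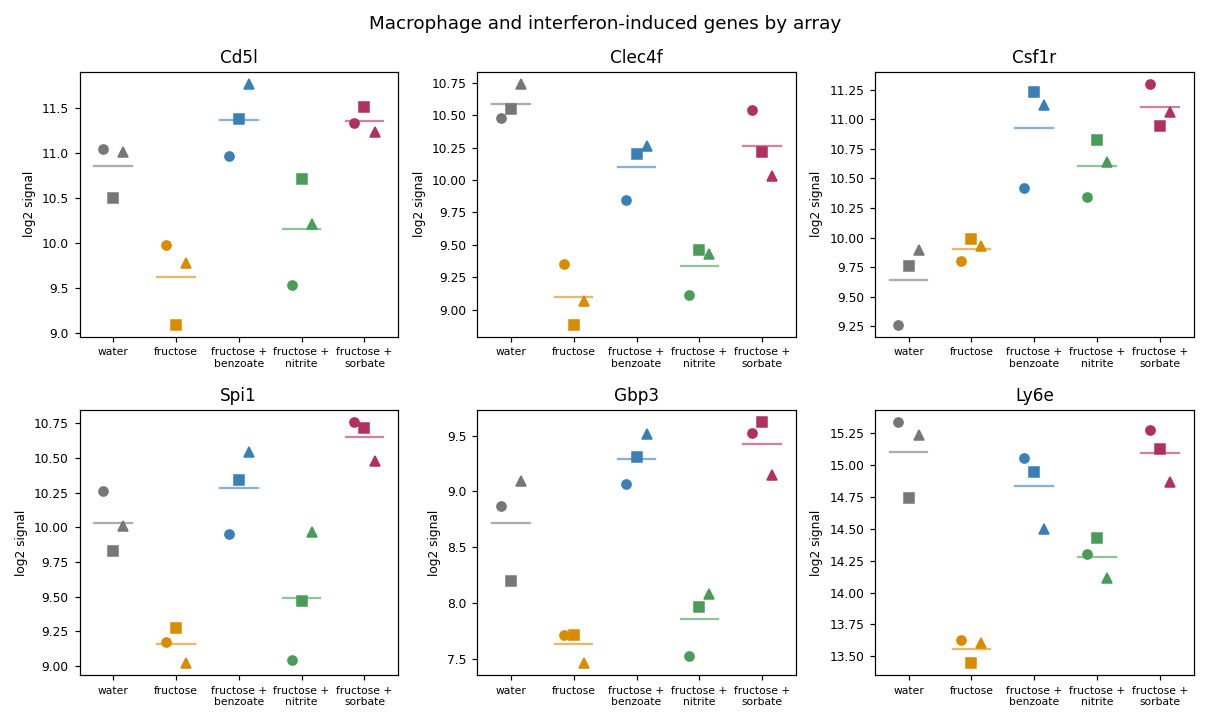
Log2 signal on each of the 15 arrays of 4 macrophage genes (Cd5l, Clec4f, Csf1r, Spi1) and 2 interferon-induced genes (Gbp3, Ly6e), with the group mean as a line and arrays 1, 2 and 3 as circle, square and triangle. In each panel the 3 sorbate points lie above the 3 fructose points, and benzoate array 1 also lies above the fructose points.

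Markers of other white blood cells gave no call. None of 14 markers of recruited monocytes and lipid-associated macrophages, 11 of neutrophils and 17 of lymphocytes passed the FDR, and the list medians were 0.02, -0.16 and -0.10. Most of these markers were dim: only 3, 1 and 2 of them lay above the negative control median on all 3 arrays of fructose or of sorbate. Over these alone, with signals under the negative controls set at that background, the medians were 0.38, -0.52 and -0.19, so that such cells were hardly measured here. Of 26 cytokine and chemokine genes only the TNF receptor gene Tnfrsf1a passed, with 2.13-fold higher signal (adjusted p = 0.0431, lost in all 6 fits that left out 1 array), and the cytokine genes Tnf, Il1b and Il6 had arrays under the negative control median in both groups, so that no fold can be given.

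Several interferon-induced genes were higher as well. These genes are switched on by interferons and by bacterial products, and their guanylate-binding proteins and GTPases act against intracellular microbes. Of 22 measured, 2 passed the FDR and 12 were higher at an unadjusted p under 0.05 with none lower. Over all probe sets 7.34% were higher and 6.03% lower at that p. The median difference of the list was 0.71. The list mean was 8.24 to 8.76 on the fructose arrays, 9.08 to 9.21 with sorbate, 8.87 to 9.27 with benzoate, 8.3 to 8.66 with nitrite and 8.78 to 9.29 with water. The median was 0.41 with the Y-linked covariate.

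Gbp3, a guanylate-binding protein, read 7.71, 7.72 and 7.46 with fructose and 9.52, 9.62 and 9.14 with sorbate, 3.47-fold higher (adjusted p = 0.00575, and 0.051 without sorbate array 1). The benzoate arrays read 9.06, 9.31 and 9.51, so that the array with Y-linked signal lay near the other two, and the difference with the covariate was 1.59 (unadjusted p = 0.0022). Ly6e, an interferon-induced membrane protein, read 13.62, 13.45 and 13.60 with fructose, 15.28, 15.13 and 14.87 with sorbate and 15.06, 14.94 and 14.50 with benzoate. It was 2.90-fold higher with sorbate (adjusted p = 0.0076, and 0.0544 without sorbate array 1), and its difference with the covariate was 1.88 (unadjusted p = 0.00015). On the water arrays Gbp3 read 8.87, 8.20 and 9.10 and Ly6e read 15.34, 14.74 and 15.23. Gbp7 (1.15) and Igtp (1.16) missed the FDR (adjusted p = 0.0655 and 0.11).

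Promoters of such genes often carry the interferon-stimulated response element, a pair of GAAA blocks. The promoter of Gbp3 is shown because Gbp3 had the smallest p of the list. It is the stretch from 250 bases before to 50 after the start in RefSeq (GRCm38.p6, chr3:142559794-142560093, plus strand), and the capitals mark the overlapping matches to GAAANNGAAA, both on the other strand and so read here as TTTCNNTTTC.
Gbp3 promoter: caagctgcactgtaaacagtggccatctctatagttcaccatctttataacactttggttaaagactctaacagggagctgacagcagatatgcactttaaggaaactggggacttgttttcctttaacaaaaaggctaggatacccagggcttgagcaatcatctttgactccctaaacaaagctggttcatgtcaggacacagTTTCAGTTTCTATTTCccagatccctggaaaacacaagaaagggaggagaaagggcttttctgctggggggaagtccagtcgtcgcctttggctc
On both strands together, 3.44% of 32851 promoters of this length hold at least 1 match. Of 16 measured interferon-induced genes with an entry, 12 have a match in at least 1 of their promoters. The first share counts promoters and the second counts genes, which can have several promoters, so that they are not directly comparable. A second annotated start of Gbp3 has no match in its window. Genes with and without a match were not compared.

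Of 15 genes of antigen presentation through MHC molecules none passed the FDR, and the peptide transporter subunits Tap1 and Tap2 and the proteasome subunit Psmb9 were the ones higher at an unadjusted p under 0.05. Another 3 immune genes outside the lists, named after their values were seen, were called. H2-T23, the mouse Qa-1 ligand of NK cell receptors, was 2.28-fold higher (adjusted p = 0.0268), Tnfsf10, the death ligand TRAIL, 2.19-fold (adjusted p = 0.0194), and Parp10, an interferon-induced ADP-ribosyltransferase, 2.68-fold (adjusted p = 0.0157). All read higher on benzoate array 1 (13.35, 9.01 and 9.40) than on any fructose array. The calls on H2-T23 and Tnfsf10 held only without sorbate array 3 (otherwise up to 0.132 and 0.116), and that on Parp10 was lost without fructose array 1 or 3 or sorbate array 1 (up to 0.0988).

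Endothelial genes showed many small differences in one direction and no call. Of 16 measured markers of the sinusoidal endothelium, 13 were higher on the sorbate arrays at an unadjusted p under 0.05 and none lower, none passed the FDR, and the median difference was 0.75. For 13 of the 16 every sorbate array lay above every fructose array, as for 12.3% of all probe sets. At that unadjusted p 7.34% of all probe sets were higher and 6.03% lower. The list mean was 9.42 to 9.72 with fructose, 10.11 to 10.46 with sorbate, 9.74, 10.26 and 10.44 on benzoate arrays 1, 2 and 3, 9.82 to 10.05 with nitrite and 8.67 to 9.34 with water. Benzoate array 1 lay close to the fructose arrays here, and with the Y-linked covariate the median was 0.27 and none of the 16 reached an unadjusted p under 0.05.

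Oit3, a secreted protein of sinusoidal endothelial cells, read 9.75, 10.31 and 10.69 with fructose and 11.69, 11.32 and 11.27 with sorbate (log2 difference 1.18 ± 0.34 SE, adjusted p = 0.121). Fcgr2b, the inhibitory Fc receptor that clears immune complexes, read 12.43, 12.13 and 12.47 with fructose and 13.32, 13.41 and 13.23 with sorbate (0.98 ± 0.25, adjusted p = 0.0844). The scavenger receptor Stab2 differed by 1.03, whereas Stab1 and Lyve1, which mark the same cells, differed by 0.13 and 0.03. Of 20 general endothelial genes 5 were higher at an unadjusted p under 0.05 (7.34% of all probe sets) and none passed the FDR. The TGF-beta co-receptor Eng differed by 1.5 ± 0.36 SE (adjusted p = 0.0643) and the junction protein Cdh5 by 1.35 ± 0.36 (adjusted p = 0.101). Of 12 hepatocyte identity genes 0 passed the FDR, with a median of 0.08 and 0 at an unadjusted p under 0.05.

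Of 23 genes of stellate cells and matrix none passed the FDR and 7 were higher at an unadjusted p under 0.05 (7.34% of all probe sets). The median of this list was 0.31. With the Y-linked covariate it was 0.09, and 1 gene was higher at that p (3.38% of all probe sets). The list mean was 7.28 to 7.57 with fructose, 7.60 to 8.01 with sorbate and 7.47, 7.45 and 7.89 with benzoate. The matrix protein Sparc differed by 1.13 ± 0.38 SE, Colec11, a collectin, by 0.93 ± 0.27 and Tgfb1, the main fibrogenic cytokine, by 0.91 ± 0.26 (adjusted p = 0.188, 0.125 and 0.116). The fibrillar collagen genes Col1a2 and Col3a1 differed by 0.28 and 0.51 without reaching an unadjusted p under 0.05. None of 8 cholangiocyte markers, of which 1 was above the negative controls, and none of 17 cell cycle genes passed the FDR.

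**Figure D4:**
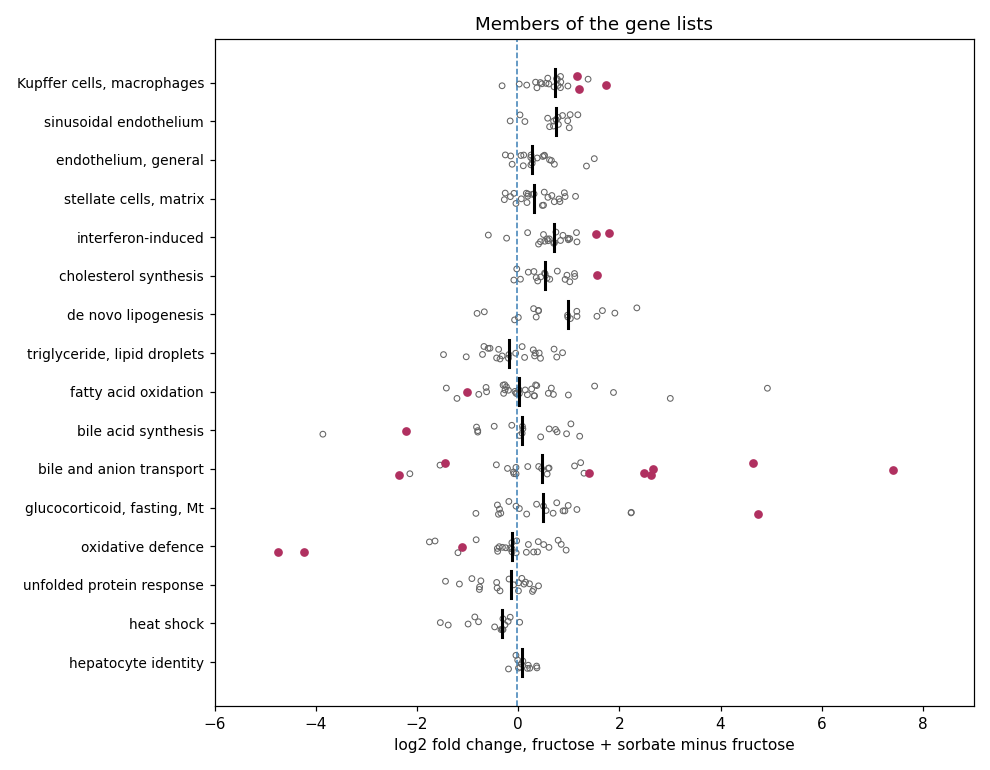
Log2 difference in signals as read, sorbate minus fructose, of each measured member of 16 gene lists (points; filled where the FDR was under 0.05; black bar: list median; dashed line: median of all probe sets at -0.03). The macrophage, sinusoidal endothelial and interferon lists lie mostly to the right of the dashed line with few filled points, while the bile and anion transport list is the widest.

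Apart from Elovl3, the lipid lists held 3 calls, with Scp2 and Acaa1a lower and Scap higher on the sorbate arrays. Scp2, the sterol carrier protein and peroxisomal thiolase that acts in fatty acid breakdown and bile acid synthesis, read 18.64, 18.56 and 18.47 with fructose and 15.90, 16.37 and 16.72 with sorbate, 4.68-fold lower (adjusted p = 0.0076, and 0.0544 without sorbate array 1). Benzoate array 1 read 18.57, at the fructose level, and the other 2 read 17.06 and 17.31, between the groups. Scp2 was lower on each sorbate array than on any of the other 12 arrays, where it lay at 17.06 or above, and its difference with the Y-linked covariate was -0.98 (unadjusted p = 0.043).

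Acaa1a, the peroxisomal thiolase of straight-chain fatty acids, read 12.97, 13.35 and 13.31 with fructose and 12.37, 12.28 and 11.93 with sorbate, 2.02-fold lower (adjusted p = 0.0445, lost in all 6 fits that left out 1 array, up to 0.165). It read 12.47, 12.56 and 13.01 with benzoate and 11.83, 12.09 and 12.13 with water. Its difference with the covariate was -1.25 (unadjusted p = 0.0047). Of 32 fatty acid oxidation genes it was the only one past the FDR, and 3 were higher and 5 lower at an unadjusted p under 0.05 (median 0.02). With the Y-linked covariate 0 were higher and 10 lower at that p, beside 3.38% and 3.74% of all probe sets, with a median of -0.54. The mean of this list was 10.87, 12.17 and 12.53 on benzoate arrays 1, 2 and 3. The counts with the covariate thus rest in the main on benzoate array 1. The acyl-CoA thioesterase Acot3 had the largest difference, 4.93 ± 1.14 SE, and just missed the FDR (adjusted p = 0.0548). Acot3 read 7.90 on benzoate array 1 and 13.26 and 14.93 on the others, and its difference with the covariate was -0.38.

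Chpt1, which makes phosphatidylcholine, is outside the lists and was named after its values were seen. It read 15.30, 14.77 and 14.88 with fructose and 12.82, 12.95 and 13.03 with sorbate, 4.14-fold lower (adjusted p = 0.0172), and 14.89, 13.18 and 12.76 with benzoate. Its call held only without fructose array 2 (otherwise up to 0.109). Of 27 genes of lipoproteins and fatty acid uptake only Scp2 passed, and the fatty acid binding protein Fabp5 had the largest difference in the other direction, 2.09 ± 0.57 SE (adjusted p = 0.106). Fabp5 ranged from 9.97 to 12.77 on the fructose arrays alone.

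Genes of cholesterol synthesis gave 1 call. Of 19 measured, 7 were higher at an unadjusted p under 0.05 (7.34% of all probe sets) and none was lower. Scap, the escort protein that carries the SREBP transcription factors from the endoplasmic reticulum to the Golgi when sterol is low, passed the FDR. Scap read 11.06, 11.97 and 12.19 with fructose and 13.12, 13.61 and 13.16 with sorbate, 2.94-fold higher (adjusted p = 0.0108, lost without fructose array 1 or sorbate array 1 or 2, up to 0.0738). All 3 benzoate arrays, 12.74, 12.50 and 12.39, lay between the groups, and the difference with the covariate was 1.87 (unadjusted p = 0.00078). The nitrite arrays, 12.42, 12.37 and 12.63, lay between the groups as well, and the water arrays read 11.45, 11.13 and 11.11.

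Srebf2, the SREBP that drives cholesterol synthesis, differed by 1.12 ± 0.28 SE (adjusted p = 0.0727), and Dhcr7, the last enzyme of the pathway, by 1.11 ± 0.46 (adjusted p = 0.295). The median of the list was 0.53, and 0.73 with the covariate. Its mean was 12.53 to 13.01 on the sorbate arrays, 11.65 to 12.43 with fructose, 11.59 to 11.84 with benzoate, 11.14 to 12.08 with nitrite and 12.05 to 12.89 with water. The sorbate arrays thus lay above all other fructose-drinking arrays in this list mean, which was not tested as such.

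Of 17 genes of de novo lipogenesis, the route by which fructose carbon becomes fat, none passed the FDR. At an unadjusted p under 0.05, 5 were higher (7.34% of all probe sets), and the list median was 0.98. Their spread between fructose arrays was wide. Acss2, an acetyl-CoA synthetase, read 11.32, 13.30 and 12.93 with fructose and 14.54, 14.42 and 14.32 with sorbate (1.91 ± 0.62 SE, adjusted p = 0.172). Pnpla3, a lipid droplet protein tied to fatty liver in humans, read 6.72, 8.16 and 8.97 with fructose and 11.41, 9.30 and 10.17 with sorbate (2.34 ± 0.78, adjusted p = 0.183). The list mean was 12.26, 13.43 and 13.41 on fructose arrays 1, 2 and 3 and 13.43 to 14.11 with sorbate. Of 23 triglyceride and lipid droplet genes none passed, with 2 higher and 5 lower at an unadjusted p under 0.05, and Fitm1, a protein of droplet formation, had the smallest p (sorbate arrays in part under the negative controls, a ratio of at least 2.24, adjusted p = 0.0754).

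Transporters of bile, sterols and organic anions held the most calls of the lipid and bile lists, 6 higher and 2 lower of 25, beside 0.41% and 0.225% of all probe sets. Abcg5, which with Abcg8 pumps cholesterol into bile, read 9.20, 9.59 and 10.15 with fructose and 11.57, 11.99 and 12.85 with sorbate, 5.63-fold higher (adjusted p = 0.0399, lost in all 6 fits that left out 1 array, up to 0.226). All benzoate arrays were high, 12.00, 12.29 and 12.95, as were the nitrite arrays, 10.7 to 13.1, and the difference with the covariate was 1.98 (unadjusted p = 0.045). Its partner Abcg8 differed by 1.30 ± 0.40 SE (adjusted p = 0.154), with each sorbate array above each fructose array.

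Abcb1a and Abcb1b encode P-glycoproteins, efflux pumps of the canalicular membrane. Abcb1a read 6.26, 6.80 and 6.62 with fructose and 9.41, 8.94 and 9.22 with sorbate, at least 6.09-fold higher (adjusted p = 0.00981, lost without fructose array 1 or 3 or sorbate array 1, up to 0.0681). Abcb1b was at least 1.97-fold higher (adjusted p = 0.0314, lost in all 6 such fits). The uptake carrier Slco1a4 was 6.30-fold higher (adjusted p = 0.0491, lost in all 6 such fits), with 12.86, 14.19 and 14.91 on the benzoate arrays.

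Slc22a26 and Slc22a27, organic anion carriers that are female-biased in mouse liver, had the largest rises of the list. Slc22a26 read 7.13, 7.74 and 7.21 with fructose and 14.51, 15.15 and 14.65 with sorbate, 170-fold higher (adjusted p = 0.00947, lost without fructose array 1 or 3 or sorbate array 1 or 2, up to 0.0575). Slc22a27 was at least 19-fold higher (adjusted p = 0.028, lost in all 6 such fits). On benzoate array 1 they read 7.13 and 5.74, as on the fructose arrays. Slc22a28, their relative, went the other way: 15.79, 15.33 and 15.30 with fructose, 13.84, 14.10 and 14.14 with sorbate and 14.51, 14.49 and 13.93 with benzoate (2.72-fold lower, adjusted p = 0.0134, lost without the same arrays, up to 0.0967). The 3 benzoate arrays were alike for Slc22a28, and its difference with the covariate was -1.17 (unadjusted p = 0.017).

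Abcg2, an efflux pump of urate and drugs at the canaliculus, read 13.78, 13.67 and 13.77 with fructose and 10.95, 11.49 and 11.69 with sorbate, 5.14-fold lower (adjusted p = 0.0194, kept only without sorbate array 3 and otherwise up to 0.116). It read 13.93 on benzoate array 1 and 11.55 and 11.35 on the other two, and its difference with the covariate was -0.13. Slco1a1, a male-biased uptake carrier, differed by -2.14 ± 0.52 SE (adjusted p = 0.0643).

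Scp2 was the one call among 18 genes of bile acid synthesis. Cyp7a1, the rate-limiting enzyme, read 14.97, 17.08 and 15.80 with fructose and 15.80, 15.75 and 13.90 with sorbate, a difference of -0.80 ± 0.76 SE (adjusted p = 0.702) with overlapping groups. Cyp7b1, the oxysterol hydroxylase of the alternative pathway and a male-biased gene, read 15.59, 12.46 and 14.00 with fructose and 10.22, 10.54 and 9.69 with sorbate (-3.86 ± 1.04, adjusted p = 0.103). The receptor Fgfr4 and its partner Klb, through which intestinal FGF15 restrains bile acid synthesis, differed by 1.21 ± 0.30 and 1.04 ± 0.35 (adjusted p = 0.0739 and 0.183). Csad, which makes the taurine that mouse bile acids are conjugated with, is outside the lists and was named after its values were seen. It read 14.44, 14.75 and 14.83 with fructose and 11.58, 13.06 and 12.46 with sorbate, 4.95-fold lower (adjusted p = 0.0445, lost in all 6 fits that left out 1 array), and 12.01, 12.11 and 11.06 with benzoate. The water arrays read 11.41, 9.94 and 9.32, so that Csad on the sorbate arrays still lay above water.

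**Figure D5:**
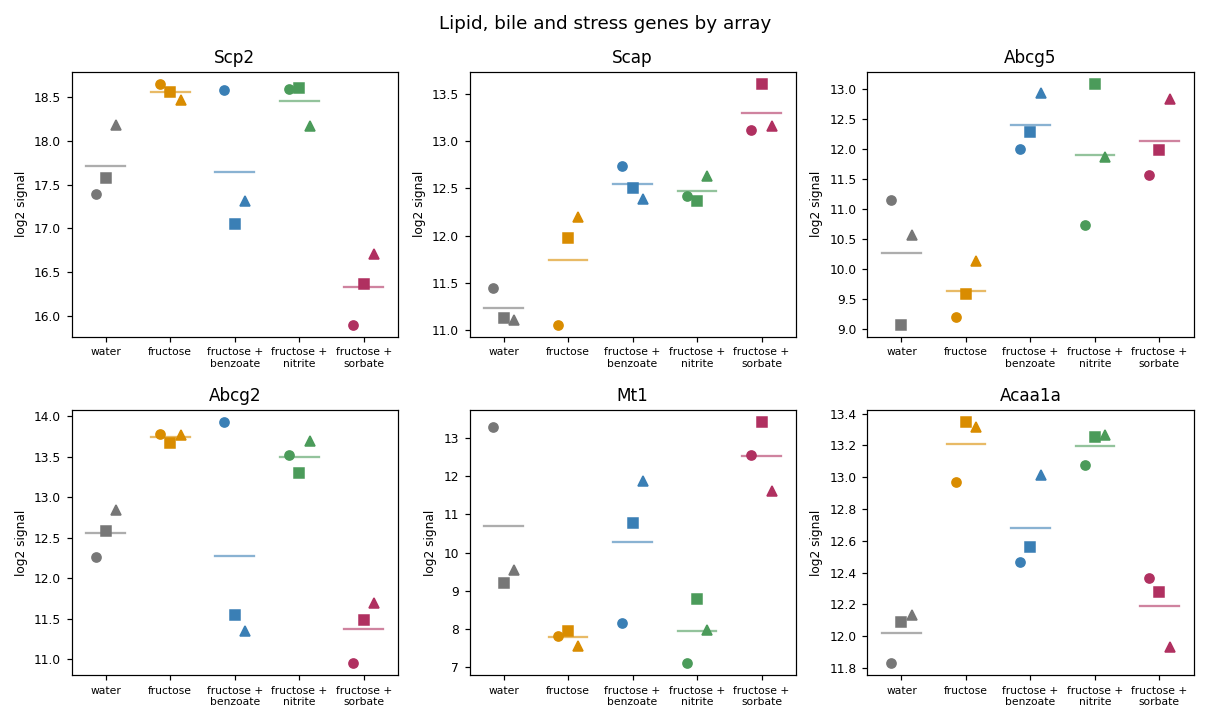
Log2 signal on each of the 15 arrays of Scp2, Scap, Abcg5, Abcg2, Mt1 and Acaa1a (line: group mean; circle, square and triangle: arrays 1, 2 and 3). For Abcg2 and Scp2 benzoate array 1 lies with the fructose arrays, whereas for Abcg5 it lies with the sorbate arrays.

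Stress genes gave few calls. None of 20 genes of the unfolded protein response and none of 14 heat shock genes passed the FDR, with medians of -0.14 and -0.33, and at an unadjusted p under 0.05 each list had 3 lower and none higher. The chaperone gene Hsp90aa1 read 15.71, 14.52 and 14.88 with fructose and 13.37, 13.22 and 13.91 with sorbate (-1.54 ± 0.45 SE, adjusted p = 0.128), and Hsph1 differed by -1.38 ± 0.46 (adjusted p = 0.182). Creld2, an endoplasmic reticulum stress gene, differed by -1.44 ± 0.45 (adjusted p = 0.156). Benzoate array 1 read 14.91 for Hsp90aa1 and the other two 13.93 and 13.90.

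Oxidative defence and conjugation held 3 calls among 28 genes, all lower. Gstp1 and Gstp2, glutathione transferases that are male-biased in mouse liver and near-identical in sequence so that their probe sets may share signal, were 27-fold and 18.8-fold lower (adjusted p = 0.014 and 0.0167). Both calls were lost without fructose array 1 or 3 or sorbate array 1 or 2, and that on Gstp2 also without sorbate array 3 (up to 0.0898 and 0.1). Gstp1 read 16.05, 14.87 and 15.62 with fructose, 10.09, 11.24 and 10.94 with sorbate and 16.02, 10.81 and 11.04 with benzoate. Ephx1, the microsomal epoxide hydrolase, read 14.02, 14.32 and 14.20 with fructose and 12.80, 13.54 and 12.90 with sorbate, 2.15-fold lower (adjusted p = 0.0445, kept only without sorbate array 2 and otherwise up to 0.178). It read 13.78, 13.46 and 13.17 with benzoate and 12.06, 12.25 and 11.87 with water, below the sorbate arrays. Its difference with the Y-linked covariate was -0.65 (unadjusted p = 0.126). The NRF2 targets Nqo1, Hmox1, Gclm and Srxn1 differed by 0.95, 0.61, -0.03 and 0.40 without reaching an unadjusted p under 0.05.

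Mt1, a metallothionein that binds zinc and rises with metals, glucocorticoids and inflammation, was the one call among 21 genes of glucocorticoid action and fasting. It read 7.83, 7.96 and 7.57 with fructose and 12.55, 13.40 and 11.60 with sorbate, 26.6-fold higher (adjusted p = 0.0175, kept only without sorbate array 3 and otherwise up to 0.114). The other arrays varied, with 8.16, 10.78 and 11.87 with benzoate, 7.1 to 8.8 with nitrite and 13.3, 9.2 and 9.5 with water. The difference with the covariate was 2.03 (unadjusted p = 0.14). Its neighbour Mt2 read 6.21, 6.04 and 6.59 with fructose and 8.49, 9.59 and 7.45 with sorbate (adjusted p = 0.0913, a ratio of at least 4.08). Fkbp5, which glucocorticoids induce, differed by 1.16 (adjusted p = 0.184), and Gadd45g, a stress gene, by a ratio of at least 4.53 (adjusted p = 0.158). The gluconeogenic genes Pck1 and G6pc differed by 0.55 and -0.34.

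The promoter of Mt1 is shown because metallothionein genes are the textbook carriers of the metal response element, whose core is TGCNCNC. Its window in RefSeq is chr8:94178839-94179138 (GRCm38.p6, plus strand), and capitals mark the 3 matches, all on the strand printed.
Mt1 promoter: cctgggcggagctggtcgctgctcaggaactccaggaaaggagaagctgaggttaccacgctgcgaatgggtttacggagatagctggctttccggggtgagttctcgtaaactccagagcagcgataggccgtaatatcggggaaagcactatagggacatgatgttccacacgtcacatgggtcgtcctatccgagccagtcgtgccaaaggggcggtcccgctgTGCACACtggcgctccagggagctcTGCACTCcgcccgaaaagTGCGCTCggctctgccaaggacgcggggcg
Counting both strands, 51% of 32851 promoters of this length hold the core at least once and 7.1% hold it at least 3 times, so that 1 match alone is common.

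Of 23 acute phase genes none passed the FDR and 6 were higher at an unadjusted p under 0.05 (7.34% of all probe sets), with a median of 0.14. Lbp, which hands bacterial lipopolysaccharide to its receptor, differed by 1.41 ± 0.41 SE (adjusted p = 0.124) and Itih4 by 1.32 ± 0.40 (adjusted p = 0.142), while the serum amyloid genes Saa1, Saa2 and Saa3 differed by -0.70, -0.50 and -0.44. Both Lbp and Itih4 read on benzoate array 1 (11.78 and 13.22) close to the fructose arrays. Of 16 clock genes only Cry2, a repressor in the circadian loop, passed, 2.58-fold higher (adjusted p = 0.0426, kept only without sorbate array 2 and otherwise up to 0.259), and no sampling time is given in the sources used here. At an unadjusted p under 0.05 there were 2 clock genes higher and 0 lower (median 0.47), and with the Y-linked covariate 9 higher and 3 lower (median 1.53). The shares over all probe sets were 7.34% and 6.03%, and 3.38% and 3.74% with the covariate. The clock list mean was 9.04, 8.41 and 8.55 on benzoate arrays 1, 2 and 3. The counts with the covariate thus rest in the main on benzoate array 1.

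A set of 21 genes that the study names for sorbate was chosen on these samples, so that its counts are no independent evidence. It had 14 higher and 7 lower at the FDR, among them Cyp2a5, Gbp3, Ly6e, Gas6, Scap and Scp2 described above. With the Y-linked covariate 7 of its genes were higher and 2 lower at an unadjusted p under 0.05, and 0 passed the FDR in limma.

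Against the benzoate arrays the sorbate arrays gave 0 calls in limma (89 probe sets, 0.401%, at an unadjusted p under 0.05 and a fold over 2, and 767, 3.45%, at that p with any fold). The benzoate group itself holds 1 array with Y-linked signal and 2 without. Against the nitrite arrays, all with Y-linked signal, the sorbate arrays gave 82 calls (0.369%), 55 higher (0.248%) and 27 lower (0.122%), and 1 with the Y-linked covariate.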

How the data were processed

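Liver RNA was hybridised to Clariom S arrays. The authors deposited log2 signals, 1 for each probe set, after background correction, normalisation between arrays and summarisation. Their methods give SST-RMA in the Transcriptome Analysis Console, whereas the submitters' processing notes list RMA with the Affymetrix Expression Console 1.4 besides that program. The scan batch is not given in the sources used here. Groups came from the sample titles.

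Of 28846 entries, 6640 controls were left out, which leaves 22206 probe sets, 19572 of them with exactly 1 gene symbol in the annotation of the platform. limma 3.58.1 (lmFit and eBayes, in R 4.3.3) fitted 1 mean per group to all 15 arrays, leaving 10 residual degrees of freedom, and p-values were adjusted by Benjamini-Hochberg over all probe sets. All adjusted p-values in the text come from limma. A probe set was called at an FDR under 0.05 and a fold over 2, and list members were counted at that FDR with any fold. Of several probe sets for a gene, the brightest on average was used. Signals that an array's 5222 negative control probes exceeded at their median give a bound only, which was decided with the data in view. Fold differences between groups come from the deposited log2 values.

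Members and gene lists (37 lists, 633 of 704 symbols measured) were chosen with earlier results of these data known. Genes named are the 10 largest rises and falls among calls with 1 symbol with separate groups, for each list as many as 6 members (by size of change at the FDR, otherwise by p), the Y-linked genes with their X-linked partners and the genes the study names for sorbate. Others are values of list members given for context, or are said to be chosen after their values were seen. The precision is limited by the number of arrays, which have no read depth. The 3 arrays of a group are not tied to cages or litters in the sources used here, and p-values measure the spread between these samples. The fit was tested on simulated data. Alternatives were another normalisation, filters, variance estimates, covariates, a replicate block and leaving out arrays.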

Additional observations from a re-analysis of the deposited data

How the results depend on the processing

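The count of 141 probe sets called was within 1.5 times under quantile normalisation, median centring, trended variance, the hybridization controls as a covariate, and without dim probe sets or those without 1 symbol (121 to 190). A fold over 1.5 could only return 141 again, since every probe set past the FDR already had a fold over 2. The count was 84 with robust variances, 451 with array weights and 465 with only the 6 arrays fitted. That last fit leaves the benzoate arrays and their spread out of the standard errors. With the Y-linked mean as a covariate the count was 1. The 1 was Upp2, a uridine phosphorylase, with a log2 difference of 5.11 (adjusted p = 0.00527 in limma) against 1.82 (adjusted p = 0.23) without the covariate. It was named after its values were seen. Leaving out 1 array gave between 7 and 73 calls. Sorbate against nitrite went from 82 calls to 1 with the Y-linked covariate and to 75 and 85 under the 2 normalisations, and sorbate against benzoate stayed at 0 in all 3. The cause of these shifts was not tested.

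Over 89 named genes and 17 alternatives, 1165 of 1513 values kept their direction and side of the FDR, 277 lost the FDR, 58 gained it and 13 reversed. Only the 52 genes past the FDR in the main fit could lose it. A gene short of the FDR there counts as kept where it stayed short. All reversals occurred with the Y-linked covariate, none of them past the FDR: Uty 0.33, Kdm5d 0.17, Cyp2b9 -0.088, Cyp2b13 -0.064, Acot3 -0.38, Pnpla3 -0.16, Cyp7b1 1.28, Cyp7a1 1.66, Kdm6a -0.32, Ddx3x -0.043, Slco1a1 0.0021, Stab2 -0.054 and Alas2 0.53. Uty, Kdm5d and Eif2s3y form the covariate, so that their differences in that fit must cancel out on average. Their reversals and lost calls there follow from the method and are no result. With the replicate number as a block 184 probe sets were called. Same-numbered arrays of the 2 groups deviated from their group means with correlations of 0.05, -0.01 and 0.07, so that the numbers were not taken to pair the samples. The 3 arrays per group limit the precision.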

Other observations

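Among 2 erythroid genes measured, Alas2, the heme synthesis enzyme of red cell precursors, read 11.15, 10.77 and 10.68 with fructose and 8.42, 8.62 and 8.0 with sorbate, a log2 difference of -2.52 ± 0.58 (SE) that just missed the FDR (adjusted p = 0.0543 in limma). It read 11.11, 7.41 and 8.20 on benzoate arrays 1, 2 and 3.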
